A study of Arabidopsis thaliana with 36 samples.

Results

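The expression of 10 genes of chlorophyll synthesis and greening was followed through graft healing in hypocotyls of Arabidopsis thaliana. The set was given by locus identifier, and all 10 of its loci were found among the 33341 loci of the count table. It holds 8 genes of the pathway from glutamyl-tRNA to chlorophyll (HEMA1, GUN4, CHLH, CHLM, PORA, PORB, PORC and CAO) and the transcription factor genes GLK1 and GLK2. In TAIR10.1 GLK1 (AT2G20570) lies at chr2:8855302-8857758, GLK2 (AT5G44190) at chr5:17798262-17800926, HEMA1 (AT1G58290) at chr1:21623700-21626402, CHLH (AT5G13630) at chr5:4387307-4392429, CHLM (AT4G25080) at chr4:12876822-12878703 and CAO (AT1G44446) at chr1:16848308-16851271. GUN4 (AT3G59400) lies at chr3:21948501-21949796, PORA (AT5G54190) at chr5:21990864-21992814, PORB (AT4G27440) at chr4:13725546-13727440 and PORC (AT1G03630) at chr1:907523-909650. RNA was sequenced from 36 libraries, 3 biological replicates in each of 12 groups that cross 4 genotypes with 3 tissues. The genotypes were the wild type Col-0, a mutant labelled dof quadruple (DOF transcription factors, with the mutated loci not named in the labels), and mutants labelled erf114,115 and anac071,096, of the ERF and NAC transcription factor families. The tissues were the uncut hypocotyl (intact, a piece of 1 mm), and the hypocotyl just above (scion) and just below (rootstock) the graft junction, pieces of 0.5 mm. Seedlings were 7 days old at the operation, lost 1 cotyledon in all 12 groups including the intact ones, were kept under short days, and were sampled after 24 h. Each grafted plant joined the cut parts of different plants, and how many plants make up a library is not stated by the labels.

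Chlorophyll is made in plastids along the tetrapyrrole pathway, which begins with glutamyl-tRNA, runs to protoporphyrin IX, and there divides into a magnesium branch that leads to chlorophyll and an iron branch that leads to haem. HEMA1 encodes the glutamyl-tRNA reductase that starts the pathway, CHLH a subunit of the magnesium chelatase, GUN4 the activator of that chelatase, CHLM the methyltransferase that acts on its product, PORA, PORB and PORC the light-dependent protochlorophyllide oxidoreductases, and CAO the oxygenase that makes chlorophyll b. GLK1 and GLK2 encode related transcription factors that act redundantly in leaves and activate genes for chlorophyll synthesis and light harvesting, and a green hypocotyl uses the pathway as leaves do.

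The upstream sequences of GLK1, GLK2 and CAO are shown because the 2 GLK genes moved differently in the tissues described next, and because CAO, whose fall in the scion was the deepest, was the sole gene of the 10 with a G-box in its window. Each is the 250 bases before the annotated gene start, 5′ to 3′ on the strand of the gene, read from the RefSeq genome TAIR10.1, at chr2:8855052-8855301 (plus strand) for GLK1, chr5:17798012-17798261 (plus strand) for GLK2 and chr1:16851272-16851521 (minus strand) for CAO. None of the 3 windows held exon bases of another locus. Capitals mark the motifs, which were searched on both strands. The G-box was searched as CACGTG. A motif linked to GLK targets was searched as CCAATC. The I-box was searched as GATAAG and lies in GLK1 on the opposite strand, so that its reverse complement is in capitals there.
GLK1: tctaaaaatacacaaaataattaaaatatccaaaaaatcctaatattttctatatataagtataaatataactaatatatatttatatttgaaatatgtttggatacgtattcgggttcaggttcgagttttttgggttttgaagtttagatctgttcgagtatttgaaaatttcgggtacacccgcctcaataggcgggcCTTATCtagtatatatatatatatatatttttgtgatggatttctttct
GLK2: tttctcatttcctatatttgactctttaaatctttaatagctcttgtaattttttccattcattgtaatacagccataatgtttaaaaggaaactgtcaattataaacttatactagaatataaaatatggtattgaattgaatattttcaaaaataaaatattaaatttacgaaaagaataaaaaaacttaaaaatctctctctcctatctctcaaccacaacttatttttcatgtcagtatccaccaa
CAO: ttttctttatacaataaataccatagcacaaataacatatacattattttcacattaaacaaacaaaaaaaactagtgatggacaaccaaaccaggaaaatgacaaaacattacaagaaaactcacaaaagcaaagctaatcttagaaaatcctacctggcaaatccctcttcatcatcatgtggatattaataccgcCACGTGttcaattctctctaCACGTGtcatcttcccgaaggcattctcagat
Of the 250 bases in each window, those of GUN4, CHLM, PORB and PORC held 28, 163, 64 and 239 exon bases of another locus. CACGTG was present in 1 of the 10 windows and in 6.5% of the 27365 windows of protein-coding genes on the nuclear chromosomes. Its copies in CAO lie 52 and 32 bases before the gene start. CCAATC was present in 2 of 10 (GUN4, 13 bases before the start, and PORB, at 219 and 22) and in 10.2% of all windows. GATAAG was present in 2 of 10 (PORA, at 94, and GLK1, at 49) and in 12.3% of all windows. GLK2 held none of the 3 motifs in these 250 bases. These matches describe the letters alone.

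Library totals ran from 19533912 to 30492868 counts, and levels are given as CPM, counts scaled to a common library size, after TMM scaling. Col-0 rootstock replicate 1 stood apart, with 2514 loci seen in no other library against at most 34 in any other. In grafted tissue ERF115 lay between 0.447 and 1.69 CPM in erf114,115 and between 27.6 and 70.7 CPM in Col-0. NAC096 lay between 5.36 and 7.16 CPM in grafted anac071,096 and between 29.0 and 53.6 CPM in Col-0. The summed level of 6 photosynthetic-cell markers (RBCS1A, RBCS2B, RCA, GAPA, CA1 and FBA1) was 19320 to 30180 CPM in the 12 intact libraries, 2826 to 4202 CPM in the 12 scion libraries and 10930 to 19090 CPM in the 12 rootstock libraries, and 0 of the 6 were at 0 in any tissue. The summed level of 3 markers of dividing cells was 1.83 to 10.08 CPM in intact, 29.5 to 68.3 CPM in scion and 15.7 to 47.8 CPM in rootstock libraries. The summed level of 4 xylem markers was 91.1 to 201 CPM in intact, 57.6 to 173 CPM in scion and 9.35 to 44.2 CPM in rootstock libraries. That of 3 epidermis markers was 428 to 674 CPM in intact, 269 to 405 CPM in scion and 196 to 361 CPM in rootstock libraries, and that of 3 phloem markers 149.6 to 249.9, 72.4 to 133.5 and 77.5 to 163 CPM in the same order. None of these markers was at 0 throughout a tissue. These 5 lists differed in level between the tissues compared below, and their part in the results was not tested. In pieces of tissue, fewer green cells and less RNA of a gene per green cell cannot be told apart.

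In intact Col-0 hypocotyls the set covered a wide range of levels. Per kb of exon, CHLH was at 313 CPM, HEMA1 at 288, CHLM at 267, CAO at 152, GLK2 at 147, PORC at 72.8, GLK1 at 60.2, PORB at 56.4, GUN4 at 0.684 and PORA at 0.0742 (means, n = 3). The libraries of CHLH overlapped those of HEMA1, those of CAO overlapped those of GLK2, and those of PORC, GLK1 and PORB overlapped down that order, while the other neighbours did not overlap. In the Col-0 scion GLK2 (40.6 CPM per kb) and GLK1 (36.8) stood above PORC (26.4), CAO (21.6) and PORB (15.1), with GLK2 and GLK1 overlapping. In the Col-0 rootstock GLK1 (17.9 CPM per kb) lay below PORB (35.0), with no overlap, and GLK2 (145) lay above CAO (110.5), also with no overlap. The order of the 2 GLK genes among the synthesis genes therefore differed between the tissues.

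PORA and GUN4 stood far below the others. PORA, the oxidoreductase known for dark-grown seedlings, had 51 counts over all 36 libraries and none in 15 of them, with 24 counts in intact, 2 in scion and 25 in rootstock libraries. It did not pass the filter on low counts and was not tested. GUN4 had 485 counts over 36 libraries, 0.5525 CPM (95% exact Poisson interval 0.504 to 0.604, counting error alone). Of its 1296 exon bases, 946 (73.0%) lie in the exons of AT3G59410 on the other strand in the reference annotation, and the strand setting of the counting is not given in the sources used here, so the counts of GUN4 cannot be taken as its level. HEMA1, CHLH, PORA, GLK1 and GLK2 share no exon base with another locus, and CHLM, PORB, PORC and CAO at most 4.33%. PORA and PORB share an exact run of at most 48 exon bases, PORB and PORC of 20, and GLK1 and GLK2 of 24. Of the 10 loci, 9 were tested, and the counts below are out of these 9.

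**Figure D1:**
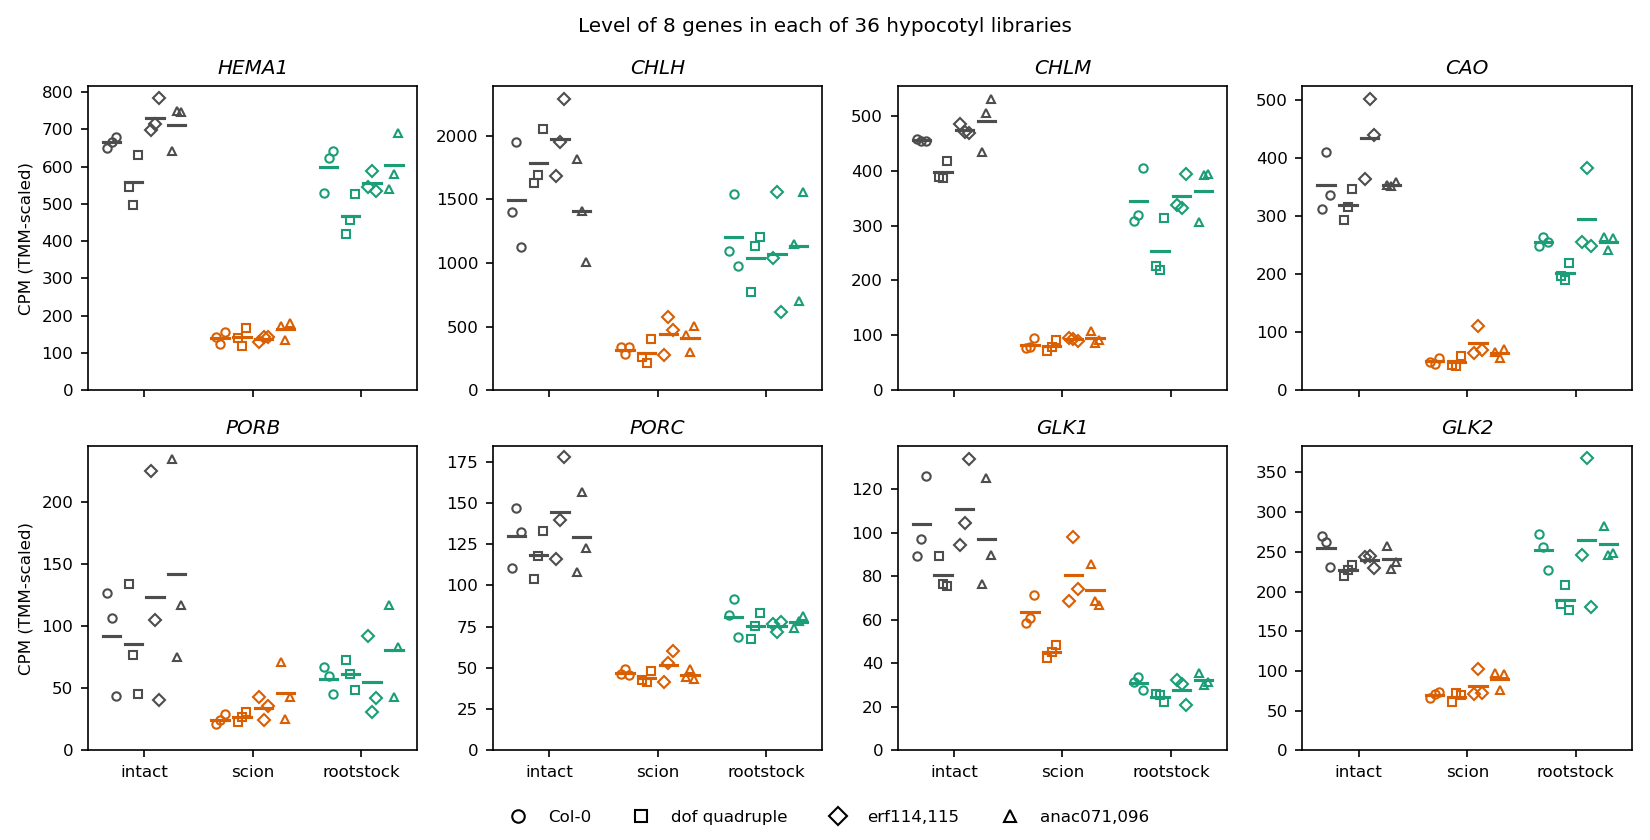
Level of 8 genes in CPM after TMM scaling on a linear axis from 0, for each of 36 libraries (symbols by genotype, colours by tissue), with bars at the group means of 3 libraries. All scion libraries of HEMA1, CHLH, CHLM and CAO lie below all intact and rootstock libraries, whereas GLK1 is lowest in the rootstock.

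At 24 h after grafting, transcripts of chlorophyll synthesis were lower in the scion than in the intact hypocotyl in all 4 genotypes. In Col-0, 8 of the 9 genes were lower in the scion than in the intact hypocotyl, where 25.2% of all 19476 loci tested were lower (edgeR quasi-likelihood test, Benjamini-Hochberg adjusted p under 0.05). The median log2 change of the 9 was −1.90, against 0.01 for all loci. CAO fell most and GLK1 least. The counts were 8 of 9 in dof quadruple (25.6% of all loci lower), 9 of 9 in erf114,115 (21.6%) and 7 of 9 in anac071,096 (22.9%).

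HEMA1, at the entry of the pathway, was at 649, 666.5 and 681 CPM in the 3 intact Col-0 libraries (665 ± 16.0, SD, n = 3). The scion libraries held 142, 124 and 156.5 CPM (141 ± 16.5) and the rootstock libraries 530, 622 and 642 CPM (598 ± 59.7). Every scion library was below every intact and rootstock library. The log2 change from intact to scion was −2.24 (SE 0.16, adjusted p 8.1e-13), a 4.73-fold fall. In dof quadruple, erf114,115 and anac071,096 it was −1.98, −2.40 and −2.13, each past the threshold. Over all genotypes the 12 scion libraries lay between 118 and 181 CPM and the 12 intact ones between 497 and 783 CPM.

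CHLH, the large chelatase subunit that is also known as GUN5, was per kb the highest of the set in intact and scion Col-0. Intact Col-0 libraries held 1397, 1954 and 1122 CPM (1491 ± 424), scion libraries 336, 282 and 338.5 CPM (319 ± 32.0), and rootstock libraries 1091, 1543 and 979 CPM (1204 ± 299). The scion stood below both other tissues without overlap, and the spread among intact replicates was wide. The log2 change from intact to scion was −2.23 (SE 0.34, adjusted p 1.96e-06). The mutants gave −2.61 (dof quadruple), −2.16 (erf114,115) and −1.77 (anac071,096), all past the threshold.

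CHLM, which methylates the magnesium protoporphyrin made by the chelatase, varied little among the intact Col-0 replicates and more in the grafted tissues. It was at 457, 454 and 454 CPM in intact Col-0 (455 ± 1.48), at 76.6, 78.2 and 94.8 CPM in the scion (83.2 ± 10.05) and at 308, 319 and 405 CPM in the rootstock (344 ± 53.3). The 3 tissues did not overlap, with the scion far below the rootstock. The change to the scion was −2.45 (SE 0.16, adjusted p 2.21e-13), and −2.30, −2.35 and −2.37 in dof quadruple, erf114,115 and anac071,096. GUN4, with the limit given above, had 61 counts in intact Col-0 and 23 in the scion, and its change of −1.65 did not pass (adjusted p 0.0613), although it did with DESeq2 (0.041). It passed in erf114,115 (−2.31, adjusted p 0.0135), a call that was lost without intact replicate 3 (−1.92, adjusted p 0.0623) or scion replicate 3 (−2.07, adjusted p 0.0615), and did not pass in dof quadruple (adjusted p 0.0888) or anac071,096 (adjusted p 0.169).

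PORB and PORC, the oxidoreductases of light-grown plants, also fell in the scion. PORC was at 111, 147 and 132 CPM in intact Col-0 (130.0 ± 18.4), at 46.3, 49.6 and 45.7 CPM in the scion (47.2 ± 2.08) and at 82.1, 91.8 and 68.6 CPM in the rootstock (80.8 ± 11.6). The 3 tissues of PORC did not overlap. Its change to the scion was −1.46 (SE 0.16, adjusted p 9.29e-09) in Col-0, and −1.43, −1.48 and −1.497 in dof quadruple, erf114,115 and anac071,096. PORB was at 127, 106 and 44.1 CPM in intact Col-0 (92.5 ± 43.1) and at 20.9, 24.4 and 29.1 CPM in the scion (24.8 ± 4.12), a change of −1.90 (SE 0.52, adjusted p 0.00283). Its intact libraries were spread from 40.8 to 234 CPM over the 4 genotypes, and replicate 1 was the highest intact library in each genotype. The fall of PORB passed in the mutants (−1.68, −1.85 and −1.62), but not without intact replicate 1 in dof quadruple (−1.20, adjusted p 0.07), erf114,115 (−1.09, adjusted p 0.0917) or anac071,096 (−1.05, adjusted p 0.112), nor without scion replicate 2 of anac071,096 (−1.32, adjusted p 0.0657). PORB made up 33.0% to 63.5% of the summed level per kb of the 3 oxidoreductase genes in the scion and 20.0% to 70.25% in intact libraries, ranges that overlap.

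CAO, at the step to chlorophyll b, showed the largest fall of the set in the Col-0 scion. Intact libraries held 313, 410.3 and 337 CPM (353 ± 50.9), scion libraries 49.0, 45.0 and 56.0 CPM (49.97 ± 5.59) and rootstock libraries 249, 264 and 255 CPM (256 ± 7.64). The scion lay far below both other tissues, which did not overlap either. The change to the scion was −2.82 (SE 0.20, adjusted p 9.1e-13), a 7.07-fold fall. It was −2.73 in dof quadruple, −2.42 in erf114,115 and −2.48 in anac071,096, all past the threshold.

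**Figure D2:**
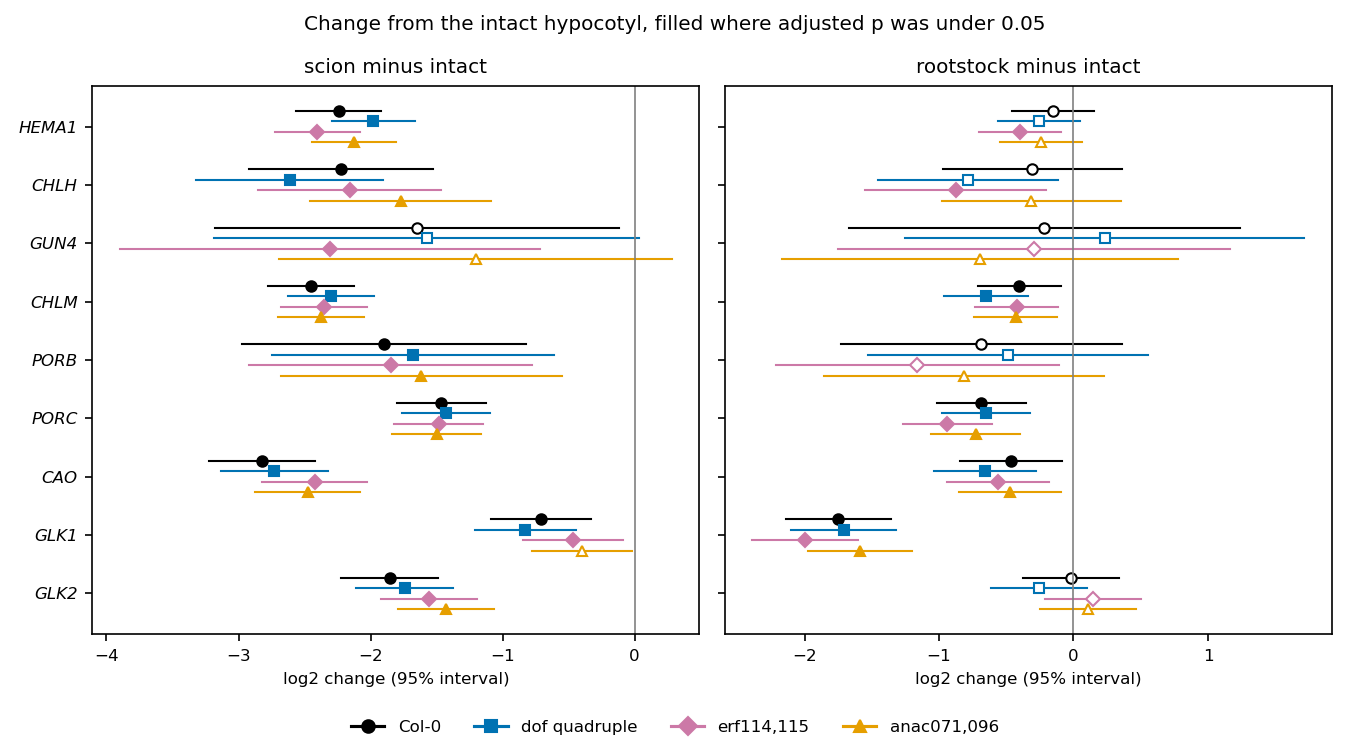
Log2 change from the intact hypocotyl to the scion (left) and the rootstock (right) for the 9 tested genes in 4 genotypes, with 95% intervals, filled where the adjusted p was under 0.05. In the scion all estimates lie below 0, and GLK1 has the smallest fall of each genotype, while in the rootstock GLK1 has the largest fall and GLK2 straddles 0.

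The 2 GLK genes departed from each other. GLK2 fell in the scion, as the synthesis genes did, and did not pass the test in the rootstock, whereas GLK1 fell further in the rootstock than in the scion. In Col-0, GLK1 was at 89.1, 97.3 and 126 CPM in intact libraries (104 ± 19.4), at 58.6, 60.8 and 71.5 CPM in the scion (63.6 ± 6.94) and at 31.6, 33.7 and 27.5 CPM in the rootstock (30.9 ± 3.12). The 3 tissues did not overlap, and the rootstock was lowest. GLK2 was at 270, 262 and 231 CPM in intact Col-0 (254.5 ± 20.4), at 66.4, 70.6 and 73.9 CPM in the scion (70.3 ± 3.78) and at 272, 256 and 227 CPM in the rootstock (252 ± 23.1). Intact and rootstock libraries of GLK2 overlapped and the scion lay far below both.

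From intact to rootstock the log2 change of GLK1 was −1.75 in Col-0 (SE 0.19, adjusted p 7.59e-09), −1.71 in dof quadruple, −1.995 in erf114,115 and −1.59 in anac071,096, with each adjusted p under 0.05. Without Col-0 rootstock replicate 1 the Col-0 value was −1.76 (adjusted p 2.36e-07). In the scion GLK1 changed by −0.71 in Col-0 (SE 0.18, adjusted p 0.00161) and by −0.83 in dof quadruple (adjusted p 0.000363). The scion change was −0.47 in erf114,115 (adjusted p 0.0344) and −0.40 in anac071,096 (adjusted p 0.0703), which did not pass with edgeR and did with DESeq2 (adjusted p 0.0353). The erf114,115 call was lost with the compared groups alone in the fit (adjusted p 0.0961), without intact replicate 3 (−0.31, adjusted p 0.209), without scion replicate 1 (−0.47, adjusted p 0.0732) and without scion replicate 3 (−0.41, adjusted p 0.115). GLK2 changed in the scion by −1.86 in Col-0 (SE 0.18, adjusted p 5.74e-10), by −1.74 in dof quadruple, by −1.56 in erf114,115 and by −1.43 in anac071,096, all past the threshold. In the rootstock GLK2 changed by −0.02 in Col-0 (95% interval −0.37 to 0.34), −0.26 in dof quadruple (−0.61 to 0.10), 0.14 in erf114,115 (−0.21 to 0.50) and 0.11 in anac071,096 (−0.25 to 0.46), none past the threshold. Scion and rootstock changes share the same intact libraries.

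The ratio of GLK1 to GLK2, per kb and within a library, does not depend on the scaling between libraries. It lay between 0.298 and 0.583 in the 12 intact libraries (median 0.383), between 0.623 and 1.04 in the 12 scion libraries (median 0.880) and between 0.0830 and 0.1405 in the 12 rootstock libraries (median 0.1245). No library of one tissue reached the range of another, in any genotype. In dof quadruple scions the ratio was 0.670 ± 0.0403, against 0.904 ± 0.0564 in Col-0 scions (SD, n = 3 each). The summed level of both genes per kb was 175.5 to 210.3 CPM in intact, 59.8 to 116 CPM in scion and 115 to 229.8 CPM in rootstock libraries.

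**Figure D3:**
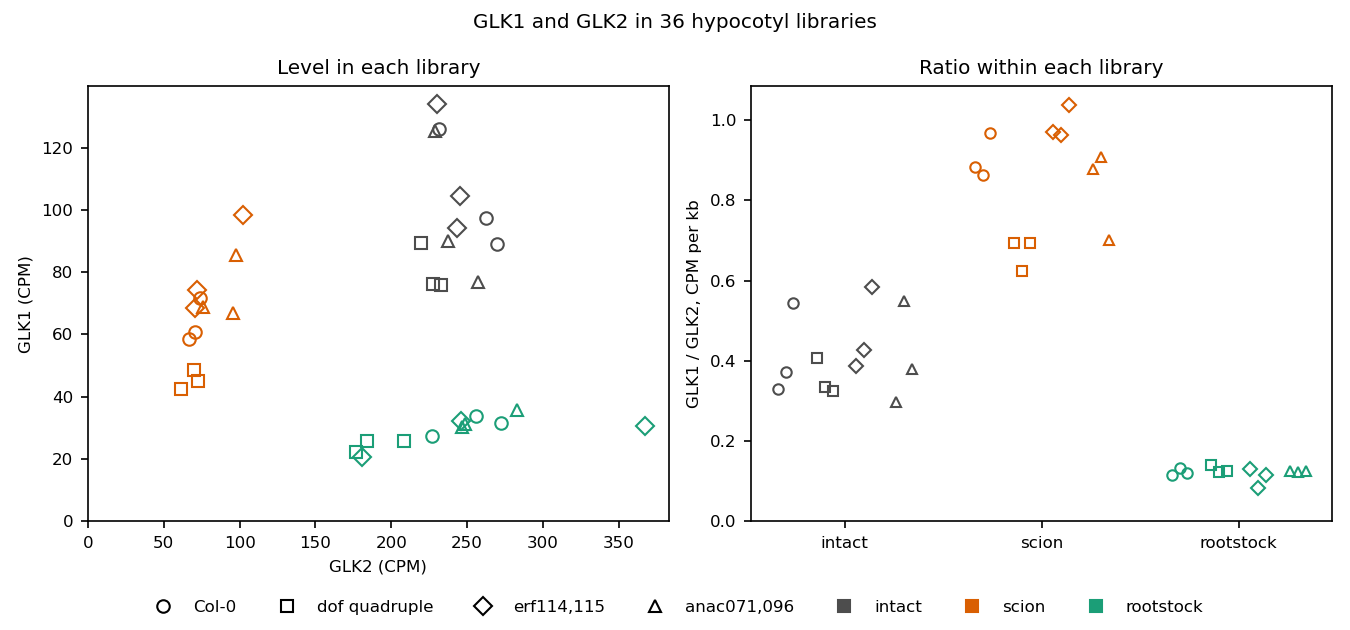
GLK1 against GLK2 in CPM for each of 36 libraries (left), and the ratio of GLK1 to GLK2 per kb within each library (right), coloured by tissue with symbols for the genotype, on linear axes from 0. The ratio separates the tissues, at 0.623 to 1.04 in scions and 0.0830 to 0.1405 in rootstocks.

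In the rootstock the changes of the synthesis genes were small beside that of GLK1. In Col-0, 4 of the 9 genes were lower (PORC, CAO, CHLM and GLK1), where 17.0% of all loci were lower, and the median of the 9 was −0.40 against 0.03 for all loci. The counts of lower genes were 4 of 9 in dof quadruple (17.4% of all loci), 6 of 9 in erf114,115 (17.9%) and 4 of 9 in anac071,096 (16.4%). PORC changed by −0.69 in Col-0 (SE 0.16, adjusted p 0.000902), −0.65 in dof quadruple, −0.94 in erf114,115 and −0.73 in anac071,096, each past the threshold. CAO changed by −0.46 (adjusted p 0.0441), −0.66, −0.56 and −0.47, and CHLM by −0.40 (adjusted p 0.0324), −0.65, −0.42 and −0.43, in the same order of genotypes, each past the threshold. HEMA1 passed in erf114,115 (−0.40, adjusted p 0.0302) and not in Col-0 (−0.15, adjusted p 0.434), dof quadruple (−0.25, adjusted p 0.175) or anac071,096 (−0.24, adjusted p 0.212). CHLH passed in erf114,115 (−0.88, adjusted p 0.0285) and not in Col-0 (−0.31, adjusted p 0.479), dof quadruple (−0.79, adjusted p 0.0531) or anac071,096 (−0.31, adjusted p 0.487). With upper-quartile scaling HEMA1 passed in anac071,096 (−0.39, adjusted p 0.0329) and CHLH in dof quadruple (−0.87, adjusted p 0.0362). PORB passed in no genotype in the edgeR fit of all 12 groups and all libraries with TMM scaling and no replicate block. In erf114,115, where it was −1.16 (adjusted p 0.064), it passed with the replicate block (−1.12, adjusted p 0.024), with DESeq2 (−1.21, adjusted p 0.0325) and with upper-quartile scaling (−1.34, adjusted p 0.0332). PORC in Col-0 was −0.70 (adjusted p 0.00402) when Col-0 rootstock replicate 1 was left out. The small rootstock falls of CAO and CHLM in Col-0 were each lost without 5 of the 6 libraries in turn, CAO without any but intact replicate 1 (adjusted p up to 0.198, and 0.0585 without the filter on low counts) and CHLM without any but rootstock replicate 3 (adjusted p up to 0.142). In erf114,115 the calls of CAO, HEMA1, CHLM and CHLH were each lost without rootstock replicate 1 (adjusted p 0.0777, 0.0792, 0.0763 and 0.0749). There CAO, HEMA1 and CHLH were also lost without intact replicate 2 or rootstock replicate 3, HEMA1 and CHLH without intact replicate 3, and CHLM without intact replicate 1 or rootstock replicate 2 (adjusted p up to 0.179). With the compared groups alone in the fit, these 4 calls (adjusted p 0.0864 to 0.148) and those of CHLM in Col-0 (0.0587) and anac071,096 (0.0672) did not pass, while CHLH in dof quadruple passed (0.00679), as it did with DESeq2 (0.031). In anac071,096 the call of CAO was lost without any of the 6 libraries (adjusted p 0.0736 to 0.12) and that of CHLM without intact replicate 2 or 3 or rootstock replicate 1 (adjusted p up to 0.142).

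Set directly against each other, the scion was lower than the rootstock for 6 of the 9 genes in Col-0 (22.7% of all loci lower) and higher for 1, GLK1 (23.5% of all loci higher). In Col-0 the 6 were CAO (−2.36), HEMA1 (−2.09), CHLM (−2.05), CHLH (−1.92), GLK2 (−1.84) and PORC (−0.78), with adjusted p from 7.04e-12 to 0.000229. GLK1 was higher in the scion by 1.04 (SE 0.19, adjusted p 3.68e-05). The scion was lower for 6 of 9 in dof quadruple (20.1% of all loci), 7 of 9 in erf114,115 (23.1%) and 6 of 9 in anac071,096 (22.6%). In each of these genotypes the gene that was higher in the scion was GLK1, by 0.88 in dof quadruple (19.7% of all loci higher), 1.53 in erf114,115 (23.6%) and 1.19 in anac071,096 (23.3%). With the compared groups alone in the fit PORC (adjusted p 0.0785) and CHLH (0.0544) did not pass in erf114,115. PORB did not pass in Col-0 (−1.21, adjusted p 0.0536), but passed with the replicate block (−1.14, adjusted p 0.0219), with DESeq2 (adjusted p 0.0298) and with the compared groups alone (adjusted p 0.000235). It was −1.09 (adjusted p 0.13) when Col-0 rootstock replicate 1 was left out. In dof quadruple PORB was −1.19 (adjusted p 0.064), and it passed with DESeq2 (adjusted p 0.0399) and with the compared groups alone (adjusted p 2.48e-05). Without Col-0 rootstock replicate 1 the 7 Col-0 calls stayed past the threshold, with GLK1 at 1.05 (adjusted p 0.000284) and CAO at −2.38 (adjusted p 4.48e-10).

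At an adjusted p under 0.05, none of the 9 genes differed between a mutant and Col-0 in the same tissue (edgeR fit of all 12 groups). That fit held no replicate block, and calls under other fits are given below. All loci differed in 4.59%, 1.5% and 3.73% of cases between dof quadruple and Col-0 in intact, scion and rootstock tissue. Between erf114,115 and Col-0 the shares of all loci were 0.0308%, 0.893% and 0.38% in the same order, and between anac071,096 and Col-0 they were 0.0411%, 0.385% and 0.863%. At an unadjusted p under 0.05 the counts were 0, 1 and 3 of 9 for dof quadruple, 0, 1 and 0 for erf114,115, and 0, 0 and 0 for anac071,096. The share of all loci at this unadjusted threshold was not counted. The shares above are at an adjusted p, so these counts have no background and are not read as a result. The 3 genes in the dof quadruple rootstock were CHLM (−0.44, adjusted p 0.103), GLK2 (−0.41, adjusted p 0.247) and HEMA1 (−0.35, adjusted p 0.232), all lower than in Col-0. Without Col-0 rootstock replicate 1 they were −0.52 (adjusted p 0.103), −0.35 (adjusted p 0.495) and −0.435 (adjusted p 0.193).

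CHLM in the rootstock was at 226.5, 218.5 and 313.5 CPM in dof quadruple (253 ± 52.7) beside the 308, 319 and 405 CPM of Col-0, so that the groups overlapped. With the replicate block it differed by −0.45 (adjusted p 0.0449), and with DESeq2 by −0.44 (adjusted p 0.0241). CAO in the scion was at 63.8, 110.0 and 69.6 CPM in erf114,115 (81.2 ± 25.2), above all 3 Col-0 scion libraries, and the difference of 0.70 (SE 0.19) had an adjusted p of 0.0616. With DESeq2 it was 0.68 (adjusted p 0.0171). GLK1 in the scion was at 42.4, 45.1 and 48.5 CPM in dof quadruple (45.3 ± 3.07), below all 3 Col-0 libraries, a difference of −0.49 (95% interval −0.87 to −0.11, adjusted p 0.369). With the compared groups alone in the edgeR fit this difference was −0.48 (adjusted p 0.0273). DESeq2 called none of the 9 in the other 7 comparisons. For HEMA1 in erf114,115 the 95% intervals of the difference from Col-0 were −0.17 to 0.44 in intact, −0.33 to 0.28 in scion and −0.41 to 0.20 in rootstock tissue, while that of PORB in the scion was −0.58 to 1.52.

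**Figure D4:**
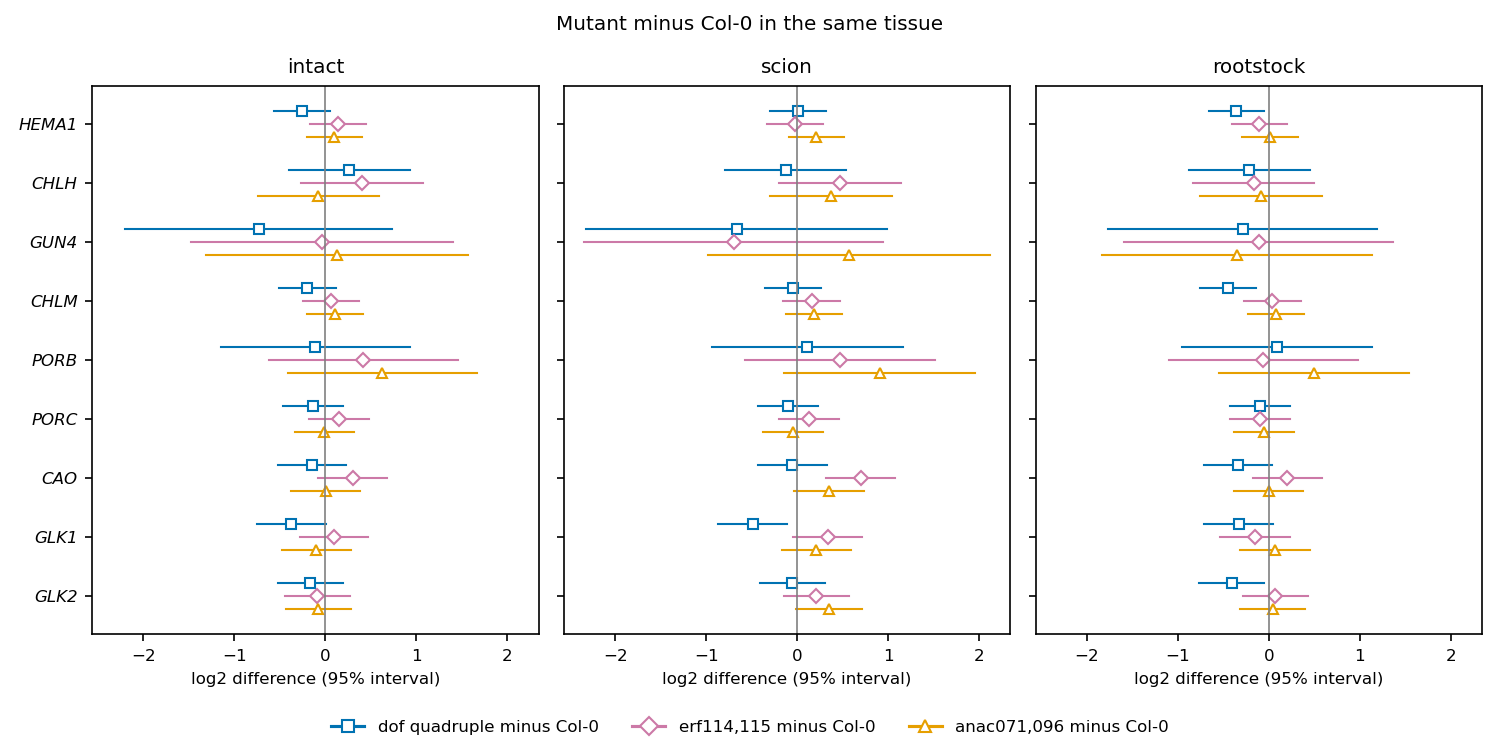
Log2 difference between each mutant and Col-0 in intact, scion and rootstock tissue for the 9 tested genes, with 95% intervals from the fit of all 36 libraries. No difference passed an adjusted p of 0.05, and the widest intervals belong to GUN4 and PORB.

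The grafting responses of the 9 genes did not differ from those of Col-0 past the threshold in any mutant, for 0 of 9 genes in each of 6 tests of the difference between responses. Of all loci, 0.945% and 0.899% differed in dof quadruple (scion and rootstock), 0.0513% and 0.0462% in erf114,115, and 0.0462% and 0.205% in anac071,096. No gene reached an unadjusted p under 0.05 in these 6 tests, and DESeq2 called 0 of 9 in each. The estimated differences ran from −0.66 to 0.46 on the log2 scale, and the smallest adjusted p was 0.931.

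Other genes of the pathway were read from 71 loci in 7 lists. Their counts in Col-0 stand beside 25.2% of all loci lower and 29.0% higher in the scion, and 17.0% lower and 22.6% higher in the rootstock. In the Col-0 scion, 7 of 7 other steps of the chlorophyll branch fell (median −1.75), with CRD1, the cyclase that closes the fifth ring of chlorophyll, at 1016 ± 43.9 CPM in intact and 192 ± 19.6 CPM in scion libraries (log2 −2.40, adjusted p 9.08e-14). AT1G74470 fell from 2148 ± 323 to 504 ± 70.4 CPM. Of 12 other steps towards protoporphyrin IX, 9 fell and 2 rose (median −0.63), with HEME2 at −1.46 and HEME1 at −1.24, both uroporphyrinogen decarboxylases. All 7 post-translational regulators fell (median −1.28), among them AT2G35260 (−2.77) and LIL3:1, a light-harvesting-like protein that anchors enzymes of the pathway (−1.85). All 10 light-harvesting antenna genes fell (median −2.41), LHCB3 from 7649 ± 2069 to 1033 ± 156 CPM and LHCA4 from 9471 ± 1396 to 1340 ± 226 CPM. Of 15 transcriptional regulators of greening, a list that holds both activators and repressors, 13 fell and 0 rose. They were led by CGA1, a GATA factor that promotes greening, from 26.4 ± 4.35 to 1.91 ± 0.133 CPM (log2 −3.79), and RVE1, a MYB-like clock-related factor (−3.37).

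The breakdown and haem genes did not follow this pattern throughout. In the Col-0 scion 8 of 12 genes of the chlorophyll cycle and breakdown fell and 1 rose, with MES16, a demethylase of chlorophyll catabolites, at −3.43 and AT1G44000 at −2.61. In the Col-0 rootstock 7 of these 12 rose and 2 fell, MES16 rising from 21.3 ± 2.49 to 51.9 ± 13.45 CPM (log2 1.28, adjusted p 4.16e-05) and CLH1, a chlorophyllase, falling from 29.3 ± 1.17 to 4.86 ± 1.09 CPM (log2 −2.59). For 3 senescence markers the summed level was 5.98 to 37.2 CPM in intact and 14.8 to 47.4 CPM in scion libraries. In rootstock libraries this sum was 1214 to 5175 CPM. Nearly all of it was SEN4, named XTH24 in the reference (2258 ± 486 CPM in the Col-0 rootstock), while SAG12 was at 0.0167 CPM there. The rootstock sum thus reads mainly 1 gene. Of 7 tested genes of the haem, phytochromobilin and sirohaem branches, 4 fell and 1 rose in the scion and 2 fell and 1 rose in the rootstock. The gene that rose in both was FC1, a ferrochelatase (1.21 in scion, 1.32 in rootstock), while FC2, the other ferrochelatase, fell in the scion (−1.07) and UPM1, of sirohaem synthesis, fell in the rootstock (−2.05).

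In the Col-0 rootstock 4 of 7 chlorophyll-branch genes fell, PCB2, the divinyl reductase, from 33.8 ± 12.6 to 9.75 ± 3.08 CPM and CHLG, the chlorophyll synthase, from 83.9 ± 17.35 to 40.0 ± 5.94 CPM. Of the 12 steps to protoporphyrin IX 6 fell and 1 rose, with HEMB1, of porphobilinogen synthesis, at −0.56 and HEMA2, another glutamyl-tRNA reductase gene, at 0.94. Of the 7 post-translational regulators 5 fell and 1 rose, with LIL3:1 at −1.17 and FLU, a negative regulator of glutamyl-tRNA reductase, at −0.75. Of the 10 antenna genes 6 fell, with LHCA1 at −0.97 and LHCB4.2 at −0.92. Of the 15 greening regulators 5 fell and 1 rose, with PIF4 (−1.61) and PIF3 (−1.51), repressors of greening in the dark, as the largest falls. The exons of CRD1, LHCB3, AT1G74470, RVE1 and LIL3:1 overlap another locus over 12.9%, 15.0%, 16.2%, 11.2% and 28.2% of their length, so part of their reads may be uncertain. Without Col-0 rootstock replicate 1, where 13.6% of all loci were lower and 19.9% higher, the counts that fell were 3 of 7 chlorophyll-branch genes, 3 of 12 steps to protoporphyrin IX, 3 of 7 post-translational regulators, 7 of 10 antenna genes and 4 of 15 greening regulators, and 3 of the 15 rose. The breakdown genes (7 rose, 2 fell) and the haem and related genes (1 rose, 2 fell) gave the same counts without it.

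**Figure D5:**
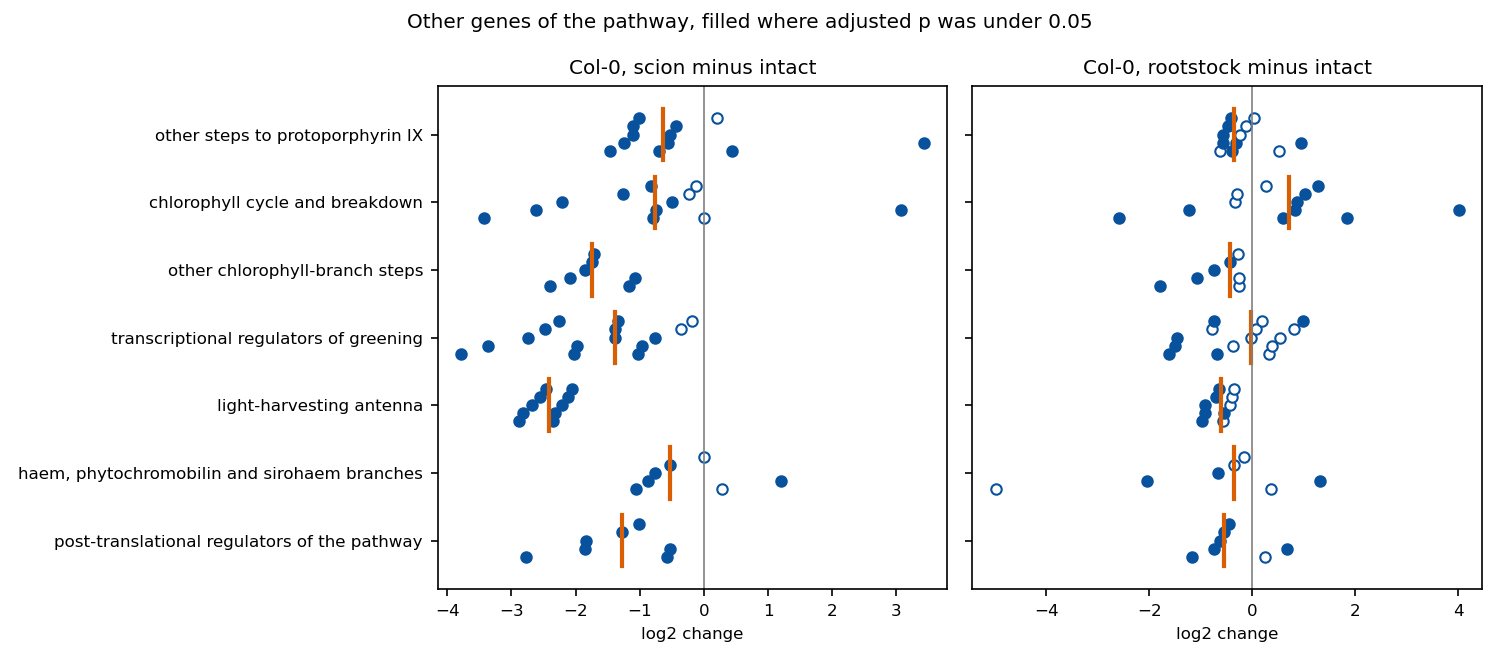
Log2 change in Col-0 from the intact hypocotyl to the scion (left) and the rootstock (right) for the tested loci of 7 lists, filled where the adjusted p was under 0.05, with vertical bars at the list medians. The light-harvesting antenna genes all fell in the scion, and 7 of 12 genes of the chlorophyll cycle and breakdown rose in the rootstock.

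Between mutants and Col-0 few of the 71 loci of the 7 lists passed. In dof quadruple 1 passed in the intact hypocotyl, 1 in the scion and 4 in the rootstock, where 4.59%, 1.5% and 3.73% of all loci differed. In the rootstock of anac071,096 1 passed, where 0.863% of all loci differed. These counts are too small to be read as a result about the lists. In the intact hypocotyl CGA1 was lower in dof quadruple (10.3 ± 4.30 against 26.4 ± 4.35 CPM, log2 −1.35, adjusted p 0.0469), a call that was lost without intact Col-0 replicate 1 (adjusted p 0.161), 2 (0.0522) or 3 (0.109) and without intact dof quadruple replicate 1 (0.254) or 2 (0.181), and without the filter on low counts (0.0978). MES16 was higher in the dof quadruple scion (4.09 ± 1.16 against 1.97 ± 0.516 CPM, log2 1.04, adjusted p 0.0266), a call lost without Col-0 scion replicate 1 (adjusted p 0.0577) or 3 (0.254) and without dof quadruple scion replicate 1 (0.0583) or 3 (0.298), and with the compared groups alone (0.0849). NYC1, a chlorophyll b reductase, was lower in the dof quadruple rootstock (60.5 ± 2.21 against 98.9 ± 3.86 CPM, log2 −0.71, adjusted p 0.00388), with no overlap. NYE2, a stay-green gene, was lower in the rootstock of dof quadruple (−2.67, adjusted p 0.0183) and of anac071,096 (−4.96, adjusted p 0.000355), but its 3 Col-0 rootstock libraries held 10.4, 0.564 and 1.57 CPM. Without Col-0 rootstock replicate 1 the dof quadruple difference was −0.69 (adjusted p 0.735). For NYE2, Rootstock anac071,096 minus Col-0 was then −2.98 (adjusted p 0.0161). The dof quadruple difference was also lost without dof quadruple rootstock replicate 1 (adjusted p 0.0637), 2 (0.0983) or 3 (0.0809), and with the compared groups alone neither passed (0.22 and 0.279).

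The loci whose pattern over the 12 group means was closest to that of the set were sought among 10942 loci at 10 CPM or more, by root mean square distance of centred log2 levels. GLK1 was closest to CCP1 (AT2G34560, distance 0.171), HCF243 (0.197), AT1G70550 (0.197), CaS (0.209) and ckl10 (0.213). GLK2 was closest to AT5G18140 (0.088), AT3G26240 (0.089), AT3G07310 (0.093), VAR1 (0.094) and CRY1 (0.1), and the mean of the other 8 genes, which takes in PORA and GUN4 at their low levels, to AT3G56010 (0.059), AT4G25620 (0.087), APE2 (0.088), AT5G42310 (0.091) and PSAD-1 (0.093). Within the set, HEMA1 and CHLM were 0.125 apart and HEMA1 and GLK2 0.245 apart on the same measure.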

How the data were processed

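RNA of 36 libraries was sequenced as paired ends, per the labels' protocols. The authors deposited raw counts per locus as whole numbers. The submitters' processing notes name fastp, HISAT2, HTSeq, DESeq2 and TAIR10, with no role or version. Neither the strand setting nor the annotation release is stated there, so reads where loci overlap are uncertain. Every library column entered the fit (columns left aside: 0).

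The deposited counts were tested with edgeR 4.0.16 (R 4.3.3, limma 3.58.1), with TMM scaling (factors 0.784 to 1.31) and filterByExpr at a minimum count of 10, which kept 19476 loci. A single robust quasi-likelihood model held all 12 groups, with 24 residual degrees of freedom and a biological coefficient of variation of 25.8%. P-values were Benjamini-Hochberg adjusted over all loci within each of 27 comparisons, with a threshold of 0.05. The fit was tested on simulated data. Alternatives were DESeq2 1.42.0, upper-quartile scaling, no filter, a replicate block, the compared groups alone, and leaving out each library in turn.

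Exon lengths, overlaps and upstream windows came from RefSeq TAIR10.1 by locus identifier. The Poisson interval holds counting error alone and not that of PCR duplication.

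Pairing of same-numbered replicates was checked by correlating their deviations from the group means. The median correlation was 0.211 for libraries of the same number and −0.102 for others. Deviations within a group sum to 0, which ties the second value to the first, so it is no separate baseline. Every pair was over 0.1 in 12 of 21 comparisons, which were read as paired from the data, since no label ties the numbers. The main tests were nonetheless unpaired in every comparison. Only the alternative fit with a replicate block took the numbers into account, as a single term over all 12 groups.

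The set and the 7 pathway lists were chosen with earlier results of these data known. Named pathway loci were the 2 passing loci per list with the largest change in Col-0 scion and in Col-0 rootstock against intact, where 1 of the compared groups averaged 5 CPM or more, and up to 2 per mutant comparison by adjusted p. Likeness searched loci of 10 CPM or more, on log2(CPM + 0.5).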

Additional observations from a re-analysis of the deposited data

Results flagged for a closer look

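The scion and the rootstock of the same genotype differed for most of these genes, by the edgeR test of scion minus rootstock. The shared intact libraries cancel in this test. The intact piece of 1 mm was not split into an upper and a lower part. A differing response to grafting and a difference along the uncut hypocotyl therefore cannot be told apart. Log2 values are given in the order of Col-0, then dof quadruple, then erf114,115, then anac071,096. GLK1 was higher in the scion, by 1.04, 0.88, 1.53 and 1.19. The scion was lower for GLK2 (−1.84, −1.48, −1.70 and −1.53), HEMA1 (−2.09, −1.72, −2.01 and −1.89) and CHLM (−2.05, −1.65, −1.93 and −1.94). It was also lower for CAO (−2.36, −2.07, −1.86 and −2.01), CHLH (−1.92, −1.83, −1.28 and −1.46) and PORC (−0.78, −0.78, −0.55 and −0.77). GUN4 was past the threshold in erf114,115 (−2.01), on few counts, a call lost without scion replicate 2 or 3 or rootstock replicate 1 or 2 (adjusted p 0.0804 to 0.118), and with most of its exon bases shared with another locus. Groups of 3 libraries were not searched for outlying libraries.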

How the results depend on the processing

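No call reversed under any alternative. Of 79 calls of single genes of the set, 79 held with DESeq2, 79 with the replicate block, 78 with upper-quartile scaling, 78 without a filter and 68 with the compared groups alone (9 were lost, and 2, of GUN4 in erf114,115, had no value since it was not among the loci tested there), and over all fits without a single library 428 held and 46 were lost. The number of genes of the set that were lower in the rootstock than in intact tissue ran from 2 to 3 in Col-0 (4 with all libraries), from 3 to 5 in erf114,115 (6) and from 2 to 3 in anac071,096 (4) when a library was left out. With the compared groups alone it was 2 in erf114,115, and the number lower in the scion than in the rootstock of erf114,115 was 4 against 7, with GUN4 not tested. Each of these counts takes in any gene past the threshold in its fit, also one that was not called with all libraries. Between mutants and Col-0, 1 gene was called in the dof quadruple rootstock (CHLM) and 1 in the erf114,115 scion (CAO) with DESeq2, 1 each with the replicate block, and 0 to 1 when a library was left out, while with the compared groups alone 1 was called in the dof quadruple scion (GLK1, −0.48, adjusted p 0.0273). Other causes of these moves were not tested. The replicate numbers did not pair the erf114,115 and Col-0 scions, where the block gave CAO 0.69 (adjusted p 0.041), nor the dof quadruple scion and rootstock, where it gave PORB −1.12 (adjusted p 0.0274), and the block changed no other call than these and those given beside the results. Upper-quartile scaling moved the median of all loci from 0.03 to −0.08 in Col-0 rootstock minus intact and from 0.08 to 0.20 in Col-0 scion minus rootstock, and changes of the set are to be read against these shifts. PORC in erf114,115 scion minus rootstock was lost with it (adjusted p 0.053). With it, loci higher and lower in the rootstock went from 5235 and 3486 to 4133 and 4499 in erf114,115 and from 4227 and 3198 to 3412 and 4110 in anac071,096, and in the erf114,115 scion minus rootstock from 4606 and 4508 to 5960 and 3735. Low counts limit PORA and GUN4 alone, since every other gene of the set had at least 418 counts in each library. Whether depth or the exon overlap with another locus keeps the counts of GUN4 low was not tested.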

Other observations

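GLK1 had its lowest group mean in dof quadruple in each tissue, at 80.4 ± 7.65 CPM against 97.3 to 111 CPM in the other 3 genotypes in intact tissue, 45.3 ± 3.07 against 63.6 to 80.4 CPM in the scion, and 24.6 ± 2.05 against 27.85 to 32.4 CPM in the rootstock (SD, n = 3). None of the 3 differences from Col-0 passed in the edgeR fit of all 12 groups (adjusted p 0.384, 0.369 and 0.437). The scion difference passed with the compared groups alone in the edgeR fit (adjusted p 0.0273). GLK2, CHLM and CAO likewise had their lowest group mean in dof quadruple in each tissue, so this order was not particular to GLK1. HEMA1, CHLH, PORB and PORC did not have it in every tissue. CGA1 was also lower in dof quadruple than in Col-0 in each tissue, at 10.3, 1.39 and 6.47 CPM against 26.4, 1.91 and 15.3 CPM. Its difference passed in intact tissue (edgeR, adjusted p 0.0469). That call was lost when any 1 of the 3 intact Col-0 libraries was left out (adjusted p 0.0522 to 0.161). PORB was highest in replicate 1 among the intact libraries of each genotype, at 127, 134, 225 and 234 CPM in Col-0, then dof quadruple, then erf114,115, then anac071,096, while the other replicates held 44.1 to 106 CPM, 45.8 to 77.0 CPM, 40.8 to 105 CPM and 75.5 to 117.5 CPM in the same order. Among rootstock libraries replicate 1 was likewise the highest in each genotype, at 67.0, 73.0, 92.4 and 117 CPM in that order. Among scion libraries replicate 1 was highest in erf114,115 and anac071,096, and replicate 3 in Col-0 and dof quadruple.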
